A study of Mus musculus with 9 samples.

Results

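The 9 libraries were divided into sides chosen by the measured level of Nkx2-2 alone, and 3 of the 9 fell below 10 FPKM (a read level corrected for transcript length and library depth). These 3 libraries are called the low side here, and the other 6 the high side. All libraries came from whole pancreas of e15.5 mouse embryos on a mixed C57BL/6 and 129Sv background, with 3 libraries for each genotype of Blinc1, a long noncoding RNA gene next to Nkx2-2: wild type (Blinc1+/+), heterozygote (Blinc1+/-) and knockout (Blinc1-/-). The low side holds the libraries labelled heterozygote replicate 1 and knockout replicates 2 and 3. The high side holds the 3 wild-type libraries, heterozygote replicates 2 and 3, and knockout replicate 1. The labels do not say whether replicates came from separate embryos or litters, nor how the Blinc1 allele was made, and the level of Blinc1 itself was not analysed here.

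Because the sides were cut from a measured level, no p-value is given for low against high, and Nkx2-2 itself is no result. Its level was 6.37 FPKM in heterozygote replicate 1, 6.08 in knockout replicate 2 and 5.48 in knockout replicate 3. In the high libraries it ran from 13.4 FPKM in heterozygote replicate 3 through a median of 20.3 to 25.5 in wild-type replicate 3. The nearest libraries on either side of the threshold were therefore at 6.37 and 13.4 FPKM, and both were heterozygotes. Knockout replicate 1 lay at 24.9 FPKM, in the upper part of the wild-type range of 15.2 to 25.5, so the side follows neither the knockout nor the heterozygote label. In the tables the locus of Nkx2-2 (mm9, chromosome 2, 147003282 to 147012138, minus strand) overlaps that of Nkx2-2as, and without a stated strand rule reads of the overlap cannot be assigned to one of them.

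Nkx2-2 encodes a homeodomain transcription factor of pancreatic progenitors and islet cells. Mouse embryos without it fail to make mature beta cells and form extra ghrelin cells. In the embryonic pancreas, Neurog3 marks the progenitors of all islet cells, a network of islet transcription factors then directs them to the insulin, glucagon, somatostatin, ghrelin or pancreatic polypeptide fate, and most of the epithelium becomes enzyme-making acinar tissue.

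Depth was similar on both sides, at 19523066 to 23526188 fragments implied by the confidence bounds on the low side and 20195873 to 25426555 on the high side. By the sex-linked transcripts Xist and Ddx3y, the low side holds 2 female and 1 male libraries and the high side 3 of each. Rank correlations between libraries were 0.978 to 0.992, and no pair agreed within sampling noise. The acinar enzyme Cpa1 (7457 to 11632 FPKM) and the pancreatic factor Pdx1 (29.8 to 38.7 FPKM) were present in every library. Genes of sympathetic and enteric neurons varied across the sides: Tubb3, a neuronal tubulin, stood at 88.7 FPKM in heterozygote replicate 1 and 68.9 in knockout replicate 1, against 14.2 and 14.6 in the low knockouts and 14.4 to 34.5 in the other high libraries.

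Of 23235 gene symbols, 13305 reached 1 FPKM in at least 3 libraries and were compared. A gene is called separated when all 3 low libraries lay above, or all below, all 6 high libraries. This held for 861 genes (6.47%), with 375 higher in the low libraries (2.82%) and 486 lower (3.65%). Most differences were small, since 98.5% of the genes differed by less than 0.5 between the side means on the log2(FPKM + 1) scale. The median over all genes was -0.02, with 7690 genes lower and 5615 higher in the mean of the low side. Only 10 separated genes differed by at least 1 log2 unit (0.0752%). The 7 higher ones (0.0526%) were Pla2g1b, Nkx6-2, Tmem186, Sst, Serpina1c and the predicted genes Gm9846 and Gm20571, and the 3 lower ones (0.0225%) were Chgb, Ins1 and G6pc2. The predicted genes have little usable data behind them. For Gm9846 no implied fragments could be had in any library, and Gm20571 had at most 6.83. Heterozygote replicate 1 was at 1.995 FPKM of Gm20571, level with wild-type replicate 1 at 1.985. The counts depend on single libraries, because each library left out removes a condition. Without heterozygote replicate 1, 839 genes were separated and higher and 1747 lower, 11 of the latter by at least 1 log2 unit. The counts were 755 and 693 (10) without knockout replicate 2 and 577 and 832 (7) without knockout replicate 3. Among the high libraries, leaving out heterozygote replicate 2 gave 946 lower genes (6), leaving out heterozygote replicate 3 gave 745 (6), and leaving out wild-type replicate 1 gave 5 lower genes of that size. With all libraries on 1 common distribution (quantile normalization), 429 separated genes were higher and 378 lower, so the higher share moved from 43.6% to 53.2%. The median over all genes was then 0.007. Pla2g1b, Nkx6-2, Sst, Ins1, Chgb and G6pc2 were separated under this scaling too.

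The insulin, amylin and ghrelin genes were lower in the low libraries and the somatostatin gene was higher. Of the 8 islet hormone genes compared, 5 were separated (62.5%, against 6.47% of all genes), 4 of them lower. The list median was -0.46, against -0.02 over all genes. In bulk tissue, fewer cells of a type and less RNA per cell cannot be told apart.

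Ins1 (mm9, chromosome 19, 52338813 to 52339948) stood at 315 FPKM in heterozygote replicate 1, 235 in knockout replicate 2 and 233 in knockout replicate 3, against 422 to 722 FPKM with a median of 617 on the high side. No low library reached the lowest high library. The means were 261 ± 47.0 FPKM (SD, n = 3) and 590 ± 116 (SD, n = 6), a difference of -1.16 on the log2 scale. Ins2, the other mouse insulin gene, was at 1463, 1390 and 1191 FPKM in the same 3 libraries and at 2050 to 3007 (median 2519) in the high ones, a difference of -0.91. Ins1 and Ins2 share much of their sequence, so the division of reads between them is uncertain, but both point the same way. Iapp, which encodes the amylin that beta cells release with insulin, was at 259, 305 and 293 FPKM against 383 to 515 (median 441), a difference of -0.63.

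Sst, the hormone of delta cells, went the other way. It was at 375 FPKM in heterozygote replicate 1, 422 in knockout replicate 2 and 455 in knockout replicate 3, against 151 to 201 (median 165) on the high side. The lowest low library was well above the highest high library, and the means were 417 ± 40.2 FPKM (SD, n = 3) and 171 ± 21.5 (SD, n = 6), a ratio of 2.44. Hhex, a transcription factor that delta cells need, did not follow it: its levels were 18.4, 21.2 and 20.1 FPKM, inside the high range of 15.4 to 22.3. Of the 9 genes compared in the list for delta, epsilon and PP cells, Sst and Ghrl alone were separated (22.2%, against 6.47% of all genes). They went in opposite directions.

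Ghrl, which encodes ghrelin, was at 77.0, 91.6 and 78.4 FPKM in the low libraries and 114 to 220 (median 134) in the high ones, a difference of -0.81. The groups did not overlap. Gcg, the glucagon gene of alpha cells, overlapped between the sides at 604, 822 and 712 FPKM against 704 to 1039 (median 895). Ppy, pancreatic polypeptide, missed separation by a narrow margin: heterozygote replicate 1 stood at 43.1 FPKM, just under the highest high library at 43.3, while the low knockouts were at 63.3 and 65.1. Among alpha cell genes, 4 of 12 were separated (33.3%, against 6.47% of all genes), all lower. One is Ttr, the thyroid hormone carrier transthyretin, at 246, 302 and 260 FPKM against 352 to 490 (median 418).

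**Figure D1:**
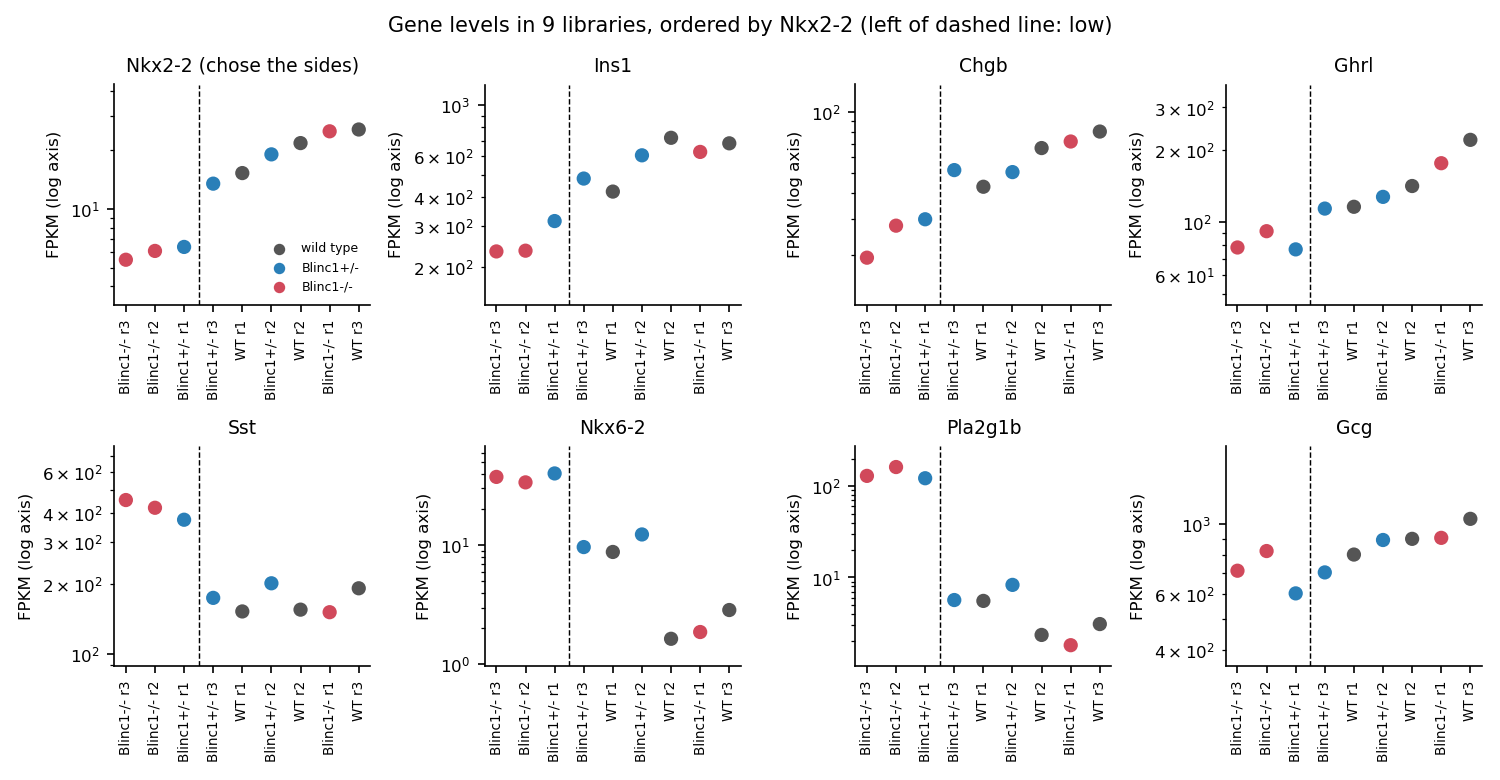
FPKM on log axes of 8 genes in each of the 9 libraries, ordered from left to right by Nkx2-2 level and coloured by Blinc1 genotype; the dashed line parts the 3 low from the 6 high libraries. Ins1, Chgb and Ghrl are lower left of the line, Sst, Nkx6-2 and Pla2g1b are higher, and Gcg overlaps.

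Among the transcription factors, Nkx6-2 stood apart. It encodes a homeodomain factor closely related to Nkx6-1. Its level was 40.1 FPKM in heterozygote replicate 1, 33.7 in knockout replicate 2 and 37.5 in knockout replicate 3. Of the high libraries, wild-type replicates 1, 2 and 3 had 8.79, 1.64 and 2.86, heterozygote replicates 2 and 3 had 12.3 and 9.66, and knockout replicate 1 had 1.87. The lowest low library was thus far above the highest high one, and the means were 37.1 ± 3.20 FPKM (SD, n = 3) and 6.19 ± 4.62 (SD, n = 6), a ratio of 6.00 and a log2 difference of 2.70. Within the high side the level varied several-fold, and the 2 heterozygotes and wild-type replicate 1 formed its upper end. Nkx6-2 lies on chromosome 7 (mm9, 146765275 to 146768696).

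The paralog Nkx6-1, a beta cell factor, showed no such shift, at 24.0, 20.7 and 20.5 FPKM against 18.9 to 24.9 (median 21.2). Pdx1 and Pax6 also overlapped between the sides, at differences of 0.15 and -0.38. Of 22 islet transcription factors compared, 7 were separated (31.8%, against 6.47% of all genes), and all but Nkx6-2 were lower. They included Neurod1, Rfx6, Fev and Pou3f4, with Pou3f4 near the detection limit. Neurod1, which acts just downstream of Neurog3, was at 6.54, 7.28 and 6.60 FPKM against 8.44 to 11.0 (median 9.82), a difference of -0.47. Rfx6, a regulator of islet formation, was at 3.27, 2.85 and 2.76 FPKM against 3.40 to 4.36 (median 3.93), a difference of -0.30.

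The progenitor level was lower as well. Neurog3 was at 48.3 FPKM in heterozygote replicate 1, 41.3 in knockout replicate 2 and 44.4 in knockout replicate 3, against 52.4 to 73.4 (median 62.9) on the high side. Fev, an ETS factor switched on after Neurog3, was at 3.42, 3.13 and 3.49 FPKM against 5.05 to 9.24 (median 5.71). In neither gene did the sides overlap. Of 21 progenitor genes compared, 6 were separated (28.6%, against 6.47% of all genes), all lower. A lower mean on the low side was found in 18 of the 21, against 7690 of 13305 over all genes. The list median was -0.38 within the knockouts but 0.05 within the heterozygotes, so the list as a whole was lower inside 1 of the 2 genotypes. Over all libraries the median was -0.22, and without knockout replicate 2 it was -0.11.

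Promoter sequences are printed for the genes with the strongest shifts in hormone or transcription factor level, since NK2-type homeodomain proteins bind the core AAGTG. Each line gives the 250 bases before the RefSeq start (build GRCm38.p6) in the direction of transcription, and capitals mark the core on either strand.
Nkx6-2, chr7:139582798-139583047, minus strand: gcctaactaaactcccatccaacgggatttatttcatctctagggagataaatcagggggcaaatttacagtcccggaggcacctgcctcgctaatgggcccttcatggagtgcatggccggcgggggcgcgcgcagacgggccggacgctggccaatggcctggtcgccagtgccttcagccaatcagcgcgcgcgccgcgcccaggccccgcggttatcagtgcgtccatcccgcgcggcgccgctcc
Sst, chr16:23890845-23891094, minus strand: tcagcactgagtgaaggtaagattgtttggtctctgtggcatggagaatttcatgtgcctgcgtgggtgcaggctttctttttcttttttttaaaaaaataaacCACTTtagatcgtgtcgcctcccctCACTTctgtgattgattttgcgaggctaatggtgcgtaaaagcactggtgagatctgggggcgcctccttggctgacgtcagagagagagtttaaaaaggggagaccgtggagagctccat
Ins1, chr19:52264047-52264296, plus strand: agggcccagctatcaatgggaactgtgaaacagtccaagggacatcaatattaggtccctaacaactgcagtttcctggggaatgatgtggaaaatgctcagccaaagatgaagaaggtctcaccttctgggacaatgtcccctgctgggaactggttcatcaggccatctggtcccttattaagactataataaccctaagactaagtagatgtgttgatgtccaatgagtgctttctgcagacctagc
The Sst window holds the core 2 times, as its reverse complement, at 146 and 121 bases before the start, and the Nkx6-2 and Ins1 windows do not hold these letters. Of the Sst matches, 1 also lies in the longer form TNAAGTGG. The core is common. It occurs in 40.7% of all RefSeq promoter windows of this length and in 37.1% of those of the genes compared. Among separated genes it was present in 37.7% of the windows of genes higher on the low side (272 of 375 genes matched) and in 34.4% of those of lower genes (365 of 486 matched). This longer form, which contains the core, occurred in 2.74% of all windows, in 1.97% for the higher and in 2.28% for the lower genes. The separated genes were thus close to the share of all genes compared for both motifs.

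Genes of beta cell function were mostly lower. Of 16 beta cell genes compared, 6 were separated (37.5%, against 6.47% of all genes and 3.65% lower), all of them lower: Ins1, Ins2, Iapp, G6pc2, Slc30a8 and Sytl4. The list median was -0.50, made of -0.16 within the heterozygotes and -0.64 within the knockouts, and without knockout replicate 2 it was -0.32. G6pc2, the islet glucose-6-phosphatase, was at 3.59, 3.38 and 3.37 FPKM in the low libraries and 6.72 to 10.3 (median 7.89) in the high ones. The difference of -1.04 was of like size within the heterozygotes (-1.04) and within the knockouts (-0.98). Slc30a8, the zinc transporter of insulin granules, was at 1.89, 2.96 and 2.14 FPKM against 3.90 to 6.83 (median 5.43), a difference of -0.96. Sytl4, a granule docking protein, differed by -0.45. The glucose transporter Slc2a2 was at 5.18, 5.35 and 4.96 FPKM and missed separation, because heterozygote replicate 3 lay at 5.22 within a high range reaching 10.7.

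Secretory granule genes were lower too. Of 20 genes for prohormone processing and granules, 7 were separated (35%, against 6.47% of all genes), with 6 lower and the carboxypeptidase gene Cpe higher. Chgb, a granin that packs the granule core, was at 29.8 FPKM in heterozygote replicate 1, 27.7 in knockout replicate 2 and 19.3 in knockout replicate 3, against 43.0 to 80.2 (median 59.2), a difference of -1.20. Chga, its relative, was at 60.7, 62.3 and 51.5 FPKM against 85.0 to 122 (median 106). The groups did not overlap in either granin. Scgn, a calcium-binding protein of islet cells, differed by -0.64, and the granins Scg2 and Scg3 by -0.55 and -0.54. Pcsk2, the convertase that cleaves proglucagon and proinsulin, was at 17.5, 20.4 and 19.7 FPKM against 22.5 to 31.1 (median 27.4). Cpe, which trims the cleaved peptides, was at 228, 238 and 231 FPKM against 199 to 221, a small difference of 0.16. In the exocytosis list 1 of 16 genes was separated (6.25%), close to the 6.47% of all genes. It was Syt13, at -0.56.

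Several of these genes are also made by neurons, whose markers differ between the low libraries. The summed level of the 21 neuron and glia genes ran from 148 to 539 FPKM on the low side and from 147 to 441 on the high side, with the upper end of each being heterozygote replicate 1 and knockout replicate 1. Within the heterozygotes the granule list had a median of 0.01 and within the knockouts -0.64, while the neuron list had 1.21 and -1.08. Npy, a peptide of neurons and of embryonic islet cells, was at 131 FPKM in heterozygote replicate 1 and at 14.7 and 16.0 in the low knockouts, against 31.2 to 101 on the high side. The part of neuronal RNA in the granule differences was not tested. With heterozygote replicate 1 and knockout replicate 1 both left out, all named separated genes were separated as before, which follows from the definition.

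The widest separation of all was in Pla2g1b, which encodes the secreted pancreatic phospholipase A2 (mm9, chromosome 5, 115916275 to 115924726). It stood at 122 FPKM in heterozygote replicate 1, 162 in knockout replicate 2 and 130 in knockout replicate 3. Of the high libraries, wild-type replicates 1, 2 and 3 had 5.54, 2.35 and 3.09 FPKM, heterozygote replicates 2 and 3 had 8.29 and 5.66, and knockout replicate 1 had 1.81. The side means were 138 ± 21.2 FPKM (SD, n = 3) and 4.46 ± 2.48 (SD, n = 6), a ratio of 31.0 and a log2 difference of 4.79. The high libraries with most Pla2g1b were those with most Nkx6-2: the 2 heterozygotes and wild-type replicate 1 led in both genes. The lowest high library still gave about 17 implied fragments of Pla2g1b, so the gene was detected on both sides.

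Other acinar genes moved much less. Of 28 digestive enzyme genes compared, 3 were separated (10.7%, against 6.47% of all genes): Pla2g1b and Cela1 higher and Gp2, a zymogen granule protein at about 1 FPKM, lower. Cela1, an elastase, was at 2316, 3106 and 2087 FPKM against 1364 to 1949 (median 1448), a difference of 0.69. The major carboxypeptidase Cpa1 was at 9462, 11632 and 9157 FPKM against 7457 to 9947, and overlapped. The enzyme list had a median of 0.10, made of -0.37 within the heterozygotes and 0.40 within the knockouts, and it was -0.11 without knockout replicate 2, 0.28 without heterozygote replicate 1 and 0.02 after quantile normalization. The list genes Amy2a5, Ctrb1 and Pnliprp1 have no value in at least 1 library, because the tables mark them as too deeply covered, and were not compared. Of 12 acinar transcription factors, Mecom (0.40) and Myc (0.13) were separated (16.7%, against 6.47% of all genes), both higher. Myc was no longer separated after median scaling. Ptf1a, the master factor of acinar cells, was not separated (92.2, 118 and 103 FPKM against 67.6 to 101).

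Tm4sf4, a 4-span membrane protein of the tetraspanin-like L6 family, was at 90.4, 113 and 87.9 FPKM in the low libraries and 41.9 to 60.5 (median 53.6) in the high ones. Its difference was 0.90, with no overlap. The alpha-1 antitrypsin genes Serpina1a, Serpina1b, Serpina1c and Serpina1d, which inhibit serine proteases, were all separated and higher, by 0.99, 0.92, 1.13 and 0.81. They are near-identical copies on chromosome 12, so which copy the reads came from is uncertain. Serpina1c was at 48.8, 61.2 and 44.1 FPKM against 17.1 to 34.5 (median 21.8), with the highest high value in wild-type replicate 2. That library also stood apart in the liver gene Alb, at 36.4 FPKM against 1.68 to 5.04 in the 8 other libraries. Anxa13, an annexin of epithelia, was at 37.3, 51.7 and 43.5 FPKM against 20.8 to 30.8, a difference of 0.75.

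Tmem186, a mitochondrial membrane protein, was spread widely inside the high side. Wild-type replicates 1 and 3 and heterozygote replicate 3 had 5.81, 5.55 and 5.12 FPKM, and the other 3 high libraries had 0.358, 0.362 and 0.434. The low libraries were at 5.88, 11.7 and 11.1, so heterozygote replicate 1 was level with the upper high libraries. Nepn, the matrix protein nephrocan, was at 5.31, 4.17 and 5.13 FPKM, just above a high range of 0.952 to 4.07. Pgam2, a muscle-type glycolytic enzyme, was at 7.35, 7.76 and 10.5 FPKM against 2.65 to 6.59.

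The widest lower genes outside the islet lists ranged from below 1 FPKM to the level of Fmo1. Fmo1, a flavin monooxygenase, was at 9.49, 6.54 and 6.91 FPKM against 11.8 to 19.7 (median 14.2), a difference of -0.86. Arhgap36 was at 3.56, 2.51 and 1.99 FPKM against 4.08 to 8.66, and Tesc, a calcium-binding protein, at 3.40, 3.06 and 2.57 against 4.80 to 8.72. Wfdc3 and Crp, the C-reactive protein gene, were below 2 FPKM in all low libraries and differed by -0.98 and -0.96 (-1.53 and -1.50 with a pseudocount of 0.1).

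Supporting tissues of the pancreas were slightly lower on the low side in the list medians. All 17 endothelial genes compared had a lower mean on the low side, against 7690 of 13305 over all genes. Of the 17, 6 were separated (35.3%, against 6.47% of all genes). The list median was -0.20, or -0.11 without knockout replicate 2. Kdr, the main VEGF receptor of vessels, was at 10.9, 9.75 and 9.47 FPKM against 11.4 to 17.6 (median 12.9). The summed endothelial level was 371 to 472 FPKM on the low side and 455 to 545 on the high side. Within the heterozygotes the list median was 0.00, and within the knockouts -0.27.

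Of 23 mesenchyme genes, 22 had a lower mean, against 7690 of 13305 over all genes. Of the 23, 5 were separated (21.7%, against 6.47% of all genes), and the list median was -0.28. The median was 0.06 within the heterozygotes and -0.44 within the knockouts, and 10 of the 23 genes were lower in both. Of these 10, the 5 separated genes are lower in both by definition. Fgf10, a mesenchymal growth factor for the pancreatic epithelium, was at 1.37, 1.20 and 1.50 FPKM against 1.56 to 2.39, and the collagen gene Col3a1 was at 415, 361 and 391 against 426 to 573. Neither was separated after quantile normalization. All 12 mesothelium genes had a lower mean, and Wt1, a factor of the covering cell layer, was at 5.60, 4.52 and 5.92 FPKM against 6.54 to 9.67. The summed levels of the mesenchyme genes overlapped between the sides (1694 to 2253 and 1917 to 2888 FPKM).

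Of 18 duct and trunk genes 1 was separated (5.56%, close to the 6.47% of all genes): Spp1, osteopontin, at -0.16. Of 27 cell cycle genes only Ccnd1, cyclin D1, was separated (3.70%), at 48.4, 42.0 and 33.3 FPKM against 49.9 to 71.1. The unfolded protein response, erythroid, Reg family, gut and stomach, and immediate early and heat shock lists held no separated gene. The erythroid list had a median of 0.31, but 0.10 without knockout replicate 2, 0.50 without heterozygote replicate 1 and -0.33 within males, and its summed level overlapped widely between the sides (5903 to 7377 and 3096 to 7690 FPKM). Of 17 immune cell genes 1 was separated (5.88%, close to the share of all genes), the macrophage receptor Mrc1, at -0.34. Vip and Calca, peptides of gut and sensory nerves, were the separated genes among 11 gut-type peptides (18.2%, against 6.47% of all genes). Both were higher and below 4 FPKM. Of 8 liver genes compared, 2 were separated (25%, against 6.47% of all genes), with Ttr lower and Serpina1a higher. A lower mean on the low side was found in 7 of the 8, against 7690 of 13305 over all genes. Of the listed genes of other organs, the stomach mucin Muc5ac was at 0 in every library.

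**Figure D2:**
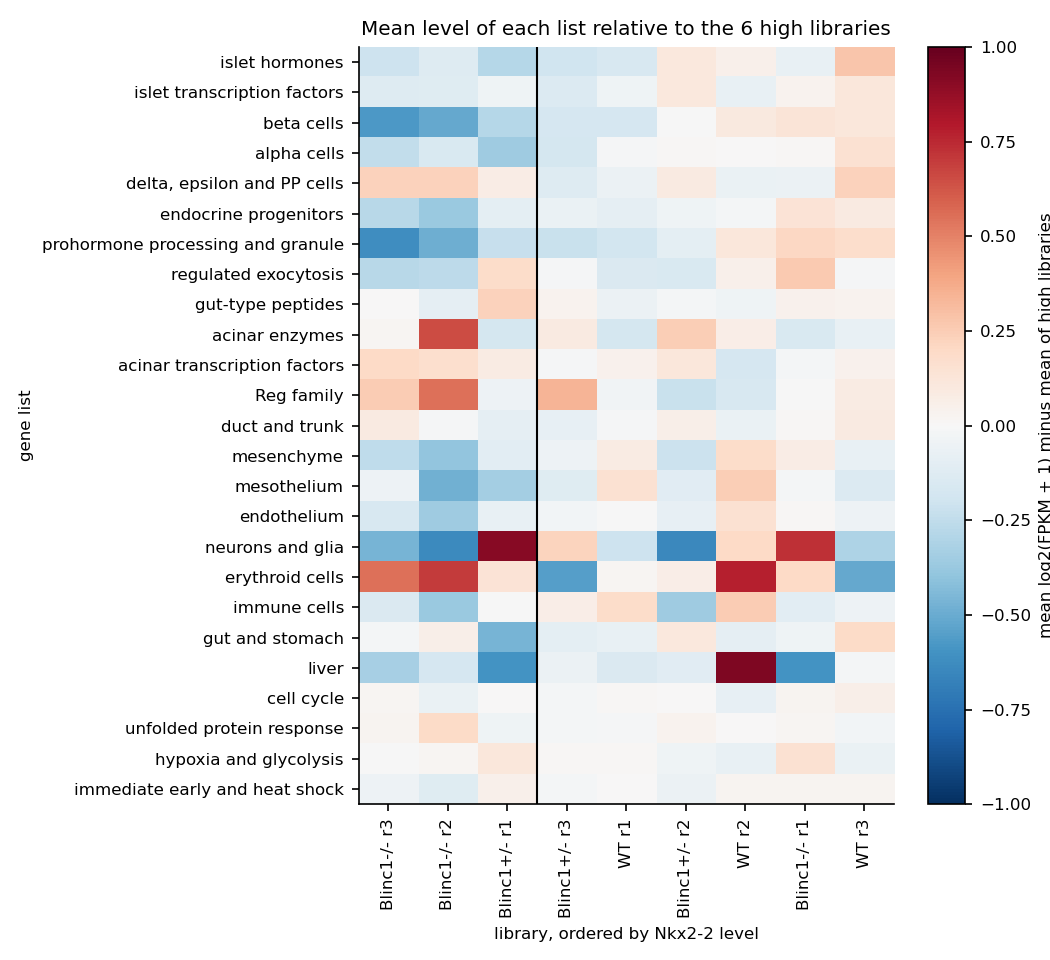
Mean level of each gene list in each library, as mean log2(FPKM + 1) minus the mean of the 6 high libraries (colour, limited to -1 and 1), with libraries ordered by Nkx2-2 level and the 3 low libraries left of the line. The beta cell, progenitor and granule lists are lower in all 3 low libraries than in any high library, narrowly so in heterozygote replicate 1 for the progenitor and granule lists, and the neuron list is high in heterozygote replicate 1 and knockout replicate 1.

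Because 2 genotypes have libraries on both sides, low and high can be set side by side without wild type. In the heterozygotes, replicate 1 was compared with the mean of replicates 2 and 3, and in the knockouts, the mean of replicates 2 and 3 with replicate 1. No library enters both differences. Over all 13305 genes, 5812 had the same direction in both (43.7%), and across genes, which are not independent replicates, the differences had a Pearson correlation of -0.29 and a Spearman correlation of -0.14. Fewer genes thus had the same direction in both genotypes than opposite directions.

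The genes that differed widely between the sides did keep their direction. Pla2g1b differed by 3.97 in the heterozygotes and 5.70 in the knockouts, Nkx6-2 by 1.79 and 3.67, and Sst by 1.0 and 1.53. The lower genes did the same, with -0.78 and -1.42 for Ins1, -0.64 and -1.04 for Ghrl, and -0.76 and -1.59 for Chgb. All of these were smaller in the heterozygotes, where a single low library is compared. The direction of a separated gene within each genotype is fixed by its definition, so the agreement adds nothing for these genes.

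Genes were also selected inside 1 genotype and read in the other. Of 44 genes at least 1 log2 unit higher in both low knockouts on average, 32 were higher in the low heterozygote too (72.7%), with a median heterozygote difference of 0.20. Of 121 genes at least 1 unit lower, 17 were lower there (14.0%), and the median heterozygote difference was 0.93 in the opposite direction. At a difference of 0.5 log2 units, 99 of 177 higher genes (55.9%) and 197 of 788 lower genes (25%) had the same direction in the heterozygotes. Selected on the heterozygotes at 1 log2 unit, 15 of 101 higher genes (14.9%) and 12 of 29 lower genes (41.4%) had the same direction in the knockouts. The higher genes selected on the knockouts were thus the group with the largest share of shared direction at this size, and in the 3 others most genes went the other way. Dbh, the enzyme that makes noradrenaline, is such a lower gene: it was at 26.3 FPKM in heterozygote replicate 1 and 18.3 in knockout replicate 1, and at 0.0184 and 0.0926 in the low knockouts. In the beta cell list, 11 of 16 genes were lower in both genotypes, and the 6 separated genes among them are so by definition. In the neuron list it was 1 of 21, the separated gene S100b. The share of all genes that were lower in both genotypes was not counted.

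**Figure D3:**
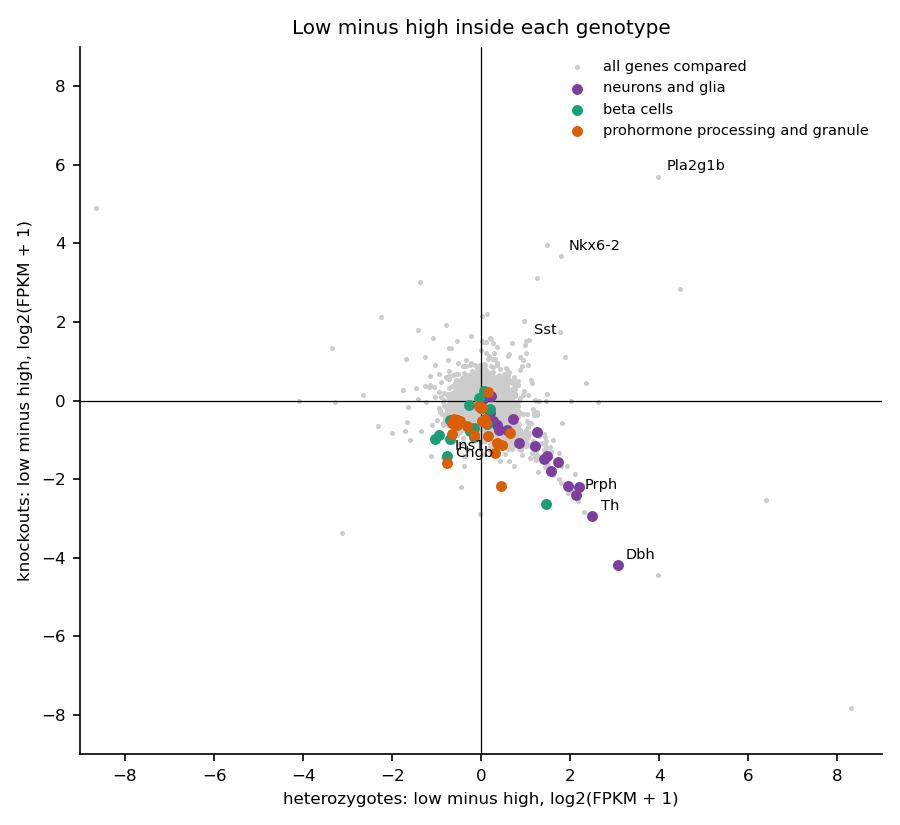
Low minus high difference on the log2(FPKM + 1) scale inside the heterozygotes (horizontal axis) and inside the knockouts (vertical axis), with 1 point per gene; coloured points are the neuron, beta cell and granule lists. Pla2g1b, Nkx6-2 and Sst lie upper right and Ins1 and Chgb lower left, while Dbh, Th and Prph lie lower right.

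The labelled genotypes were tested as well, since these contrasts do not use the sides. With limma across all 13305 genes and Benjamini-Hochberg adjustment, 0 genes passed an adjusted p of 0.05 for knockout against wild type (0.0%), heterozygote against wild type (0.0%) or knockout against heterozygote (0.0%). At an unadjusted p under 0.05, limma gave 1117, 521 and 296 genes. Sex was not balanced between the genotypes. The knockout libraries all read as female, while replicates 1 and 2 of wild type and heterozygote read as male. With sex as a covariate, limma gave 559, 475 and 357 genes at this unadjusted level, and 0 passed an adjusted p of 0.05. For knockout against wild type, Pla2g1b differed by 3.13 (SE 1.53) and Nkx6-2 by 1.76 (SE 0.97) in limma, with adjusted p of 0.58 and 0.59. Sst differed by 0.89 (SE 0.41) and Ins1 by -0.87 (SE 0.40), both with a limma adjusted p of 0.58. In each of these genes the 2 low knockouts lay on the far side of all wild-type libraries and knockout replicate 1 did not. Without knockout replicate 1, limma called 1, 7 and 4 genes in the 3 contrasts, and leaving out any other single library gave at most 2.

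Position relative to the Blinc1 and Nkx2-2 locus was looked at last, because the mutant libraries carry an allele there. Mutant libraries stand on both sides, so low against high does not compare carriers of the allele with non-carriers. None of 5 genes compared within 1 Mb of Nkx2-2 was separated, and 6 of 52 were within 5 Mb (11.5%) and 13 of 135 within 10 Mb (9.63%), against 6.47% of all genes. Within 20 Mb, 26 of 302 were separated (8.61%), 6 higher and 20 lower. Chromosome 2 as a whole had 87 of 1046 (8.32%). Of the chromosomes counted, only chromosome 15 had a higher share (9.42%), and the lowest was 4.64% on chromosome 17. The separated neighbours within 5 Mb included Pcsk2 and Rbbp9, a retinoblastoma-binding hydrolase, which was at 71.9, 76.1 and 75.6 FPKM on the low side and at 41.7 to 67.6 (median 53.1) on the high side.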

How the data were processed

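RNA of 9 whole pancreas libraries was sequenced on an Illumina HiSeq2000, per the labels. The authors used TopHat 2.0.4 for mapping (mm9, up to 4 mismatches, up to 10 hits per read), per the series' design text, and the deposited FPKM values with confidence bounds come from Cufflinks, per the file headers and the submitters' processing notes. CASAVA 1.8.2 is also named in those notes. For annotation and strand setting, the labels, notes and headers name nothing. Loci of 1 symbol (248 symbols) were summed, and symbols marked HIDATA in any library (4) were left out. Starts were made 1-based, and 99.6% of single-locus symbols found in GENCODE vM1 overlapped their locus there.

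Depth was read from the upper confidence bound, taken as 2 standard errors of the implied fragments. Of implied fragments up to 500, 74.6% to 75.3% per library lay within 0.05 of a whole number, so no count test was run. Levels were compared as log2(FPKM + 1), which understates changes of low genes. The genotype contrasts used limma 3.58.1 in R 4.3.3 with a mean-variance trend, two-sided, with all 9 libraries in 1 fit, and the code was tested on simulated data. Since the labels do not say that replicates are separate embryos, its p-values cover the variation among these libraries, which may in part be technical. By Xist and Ddx3y, the wild-type and heterozygote groups each hold male and female libraries, so neither group comes from 1 embryo alone.

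The sides, the 25 gene lists (408 symbols, 359 compared) and the rules were chosen with earlier results of these data known. Genes were named by 3 rules: a fixed set of 13 hormone, islet and acinar genes, up to 3 separated members per list with the largest difference (or the member with the highest level), and the 12 higher and 12 lower separated genes with the largest difference and at least 20 implied fragments on the higher side. This gave 64 genes; others named in the text were chosen after their values were seen. Alternatives were pseudocount 0.1, other filters (none, 5 FPKM), quantile and median scaling, dropping FAIL and LOWDATA rows, sex as a covariate or within sexes, a replicate block, and each library left out. Promoters came from RefSeq (GRCm38.p6) and were matched by symbol. Results for some list members are not reported here.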

Additional observations from a re-analysis of the deposited data

Results flagged for a closer look

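Of the 64 named genes, 3 moved in opposite directions in the 2 genotypes, with every low library on one side of the high ones, and the report shows that many unnamed genes did so too. The difference between genotypes was not tested. Nkx6-1, the beta cell factor, differed between low and high by 0.20 in the heterozygotes and by -0.21 in the knockouts on the log2(FPKM + 1) scale. Reg1, a secreted lectin of acinar cells, differed by -0.20 and 0.65. Tff2, a trefoil peptide of the stomach, differed by -0.58 and 0.36.

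In 3 of the 64 named genes, wild-type replicate 2 lay far from the 5 other high libraries by a rule that chance meets in about 1 in 20 groups. Flags in 3 of 64 genes are near that rate, but all 3 fell on this library. Whether they arose by chance was not tested. The Ndrg1 level of wild-type replicate 2 was the lowest of the high side, at 81.5 FPKM. Its Serpina1b and Serpina1d levels were the highest, at 16.4 and 6.84 FPKM. Serpina1b and Serpina1d are near-identical copies.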

How the results depend on the processing

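With 3 and 6 libraries and no replicate check of the sides, the low and high differences are descriptions of these libraries. All 52 named separated genes kept their direction under every alternative run. Only quantile and median scaling could have changed it. In the other alternatives the direction follows from the definition of a separated gene. Quantile normalization ended the separation of Col3a1, Fgf10, Flt1, Gp2, Ret and Spp1, and median scaling that of Myc and Spp1. A pseudocount of 0.1 widened the low-level genes Pou3f4 (-0.83), Vip (0.65) and Gp2 (-0.98). Within males alone, where 1 low library stands, Reg1 differed by -0.16 instead of 0.29. A pseudocount of 0.1 gave 16 separated genes at least 1 log2 unit lower and a correlation between the genotypes of -0.31, and a filter of 5 FPKM gave 300 lower separated genes and a correlation of -0.26.

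Leaving out 1 library at a time gave 403 to 839 higher and 522 to 1747 lower separated genes, 7 to 10 and 3 to 11 of them at least 1 log2 unit apart. It gave 41.3% to 48.1% of genes with the same direction in both genotypes and a correlation of -0.36 to -0.15. List medians moved to unlike degrees. That of the neuron and glia list ran from -0.48 to 0.31 and that of the liver list from -0.34 to -0.013. The median of the unfolded protein response list ran from -0.017 (without knockout replicate 2) to 0.09. Genes called by limma ran from 0 to 1 for knockout against wild type, 0 to 7 for heterozygote against wild type and 0 to 4 for knockout against heterozygote. Without both heterozygote replicate 1 and knockout replicate 1, a choice made after seeing the data, 961 higher and 1824 lower genes were separated, 14 of the latter by at least 1 log2 unit, the unfolded protein response median was 0.10, and limma called 4, 5 and 5 genes. The cause of these shifts in limma calls was not tested.

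Same-numbered libraries deviated from their group means with correlations of -0.19 to 0.29. Libraries with different numbers were not compared in this way, so whether the replicate numbers pair the libraries was not tested. The value of 0.29 belongs to heterozygote replicate 1 and knockout replicate 1. It restates the correlation of -0.29 between the within-genotype differences with its sign turned. With the replicate number as a block, limma called 1 gene for heterozygote against wild type and 0 for the other contrasts.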

Other observations

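Outside the gene lists, separated genes at least 0.5 apart on the log2(FPKM + 1) scale included several at moderate levels; they are named here after their values were seen. There were 28 higher and 56 lower genes of this size. Among the higher ones, Clca1, a chloride channel regulator, was at 50.0, 53.8 and 54.1 FPKM in heterozygote replicate 1, knockout replicate 2 and knockout replicate 3, against 29.7 to 40.5 on the high side. Rprm, a p53-induced cell cycle inhibitor, was at 42.0, 47.0 and 37.5 FPKM against 22.4 to 33.7, and Cox7a1, a subunit of cytochrome c oxidase, at 95.5, 94.1 and 88.7 against 48.0 to 79.2. Bcl11a, a zinc finger repressor, was at 11.5, 11.2 and 12.1 FPKM against 7.04 to 8.78.

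Among the lower ones, Habp2, a secreted protease, was at 43.4, 48.9 and 48.2 FPKM against 63.9 to 76.5. Pkig, an inhibitor of protein kinase A, was at 26.5, 26.0 and 26.8 FPKM against 31.8 to 44.2. Cryba2, a crystallin also found in islet cells, was at 9.22, 9.25 and 8.19 FPKM against 11.2 to 17.8, and Papss2, which makes the sulfate donor, at 5.98, 6.57 and 6.06 against 8.79 to 11.2.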
